A study of Mus musculus with 6 samples.

Results

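The receptor pair megalin and cubilin and the proteins that fold, anchor, adapt and acidify their endocytic route are covered here by 6 genes, Lrp2, Cubn, Amn, Dab2, Lrpap1 and Clcn5, of the 22061 genes measured. They were chosen by symbol, and each had 1 probe set in the deposited table. RNA came from MCT cells, a proximal tubular line taken originally from the kidney cortex of SJL mice. The cells rested overnight without serum and then received 100 ng/mL of TWEAK, a cytokine of the TNF superfamily, or vehicle, with all arrays labelled 6 h. Each group had 3 arrays, from experiments that the series calls independent, and the p-values measure the spread between those arrays. A cultured line of this kind has no filtrate to take up, and nothing in the labels says how much of the apical uptake machinery it retains.

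Megalin (Lrp2) and cubilin (Cubn) are very large receptors of the apical membrane of the proximal tubule, where they take up filtered albumin, vitamin carriers and other small proteins. Megalin belongs to the LDL receptor family and crosses the membrane itself. Cubilin has no membrane span of its own and reaches the surface with amnionless (Amn). The chaperone RAP (Lrpap1) keeps LDL receptor family members from binding ligand too early in the endoplasmic reticulum. Dab2 is an adaptor that links the tail of megalin to clathrin, and ClC-5 (Clcn5) is a chloride-proton exchanger of early endosomes, whose loss in people causes Dent disease with loss of small proteins in urine.

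After TWEAK, the arrays for Lrp2, Cubn, Lrpap1 and Clcn5 all lay below every control array, while those for Dab2 and Amn overlapped the control arrays. Fold differences were 1.64-fold lower for Clcn5, 1.56-fold for Lrp2, 1.41-fold for Dab2, 1.25-fold for Cubn and 1.15-fold for Lrpap1, and Amn was at 103.0% of control. None of the 6 passed limma at the threshold of 0.05 for the p adjusted over all genes, which 661 genes (3.00%) did. At an unadjusted p under 0.05, 5 of the 6 were lower, against 13.1% of all genes. The 5 became 3 without control 2, control 3 or TWEAK 1, and 4 without control 1, TWEAK 2 or TWEAK 3. The matching share of all genes was not computed for those fits. The TWEAK arrays lay wholly below the control arrays for 4 of the 6 and for 13.5% of all genes. The median log2 difference of the 6 genes was -0.41, beside 0.03 over all genes tested.

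**Figure D1:**
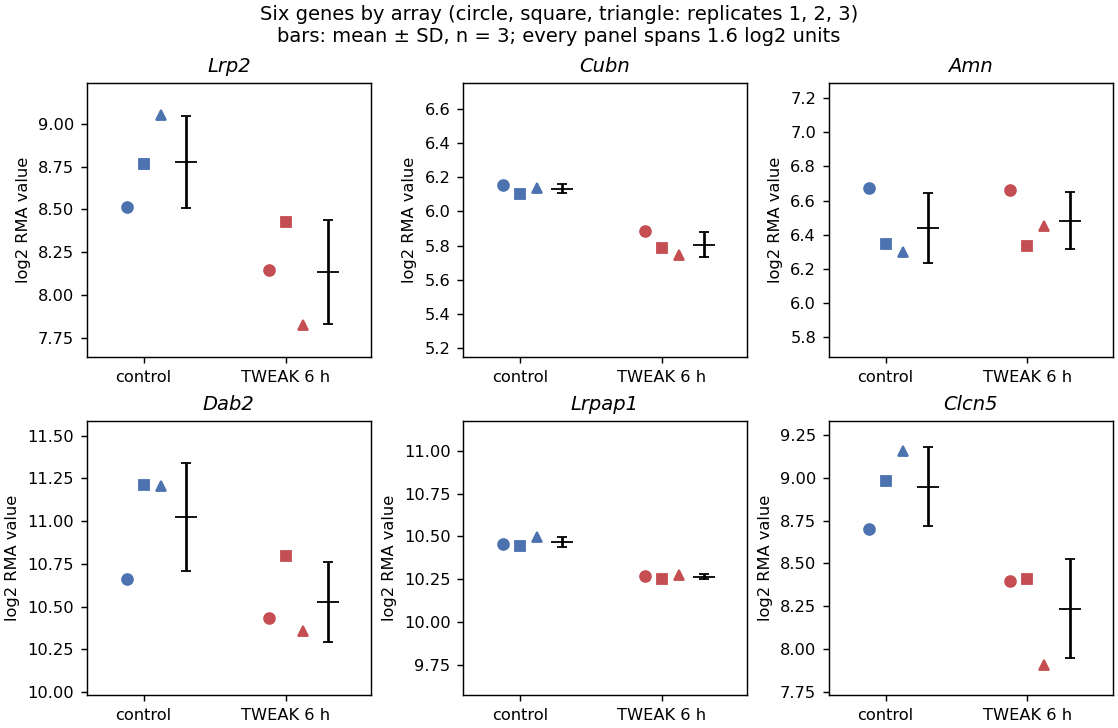
Log2 RMA value of each gene on the vertical axis for 3 control (blue) and 3 TWEAK (red) arrays, with replicate number given by the symbol, and the mean ± SD at the right of each group. The control and TWEAK points are separate for Lrp2, Cubn, Lrpap1 and Clcn5 and overlap for Dab2 and Amn.

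Of the 22061 genes, 378 (1.71%) were called lower and 283 (1.28%) higher, with 269 lower and 308 higher once the arrays were centred on their medians and 84 lower and 183 higher after cyclic loess. The array medians ran from 6.12 to 6.18 and the lower quartiles from 4.65 to 4.73 (log2). The upper quartiles ran from 8.38 to 8.47 on control arrays and from 8.31 to 8.36 on TWEAK arrays, without overlap. The main axis of a principal component analysis, with 61.2% of the variance, placed control 1 (-3.26) nearest to the TWEAK arrays (9.37 to 30.5), ahead of control 2 (-20.1) and control 3 (-36.8). Of 12 proximal tubule markers 0 lay below the lower quartile on all arrays, and 4, among them Lrp2, Slc5a2 and Aqp1, lay above the median gene on all arrays. Markers of distal nephron, podocytes, endothelium, leukocytes and fibroblasts numbered 24. Of these, 4 (Calb1, Ptprc, Adgre1 and Dcn) lay below the lower quartile on all arrays and 0 passed limma's test. Above the median gene on all arrays were 1 of 6 distal nephron and 2 of 4 podocyte markers. The same held for 0 of 4 endothelial, 1 of 5 leukocyte and 2 of 5 fibroblast markers. Before adjustment, 2 of the 24 were higher and 0 lower at p under 0.05, beside 8.15% and 13.1% of all genes. Among the 12 proximal tubule markers 0 passed, and before adjustment 2 were lower, Lrp2 and Cubn themselves, and 1 was higher, the glucose transporter gene Slc5a2, at 0.42 (SE 0.15). Of the other 10 proximal tubule markers, 8 had a difference above 0. That was also the more common direction over all genes, of which 41.5% had a difference below 0. Of 6 general epithelial markers the tight junction gene Cldn1 rose, by 2.13 (SE 0.19, adjusted p = 0.00582 in limma), and Tjp1 differed by -0.84 (SE 0.23, 0.0788). The mean level of the 5 leukocyte markers was 5.24 to 5.46 in control and 5.34 to 5.50 in TWEAK arrays, and that of the fibroblast markers 5.77 to 5.90 and 5.83 to 6.02. Podocalyxin (Podxl), listed with podocytes, reached 9.71 on its highest array. The tables hold no detection call, so absence of a marker cannot be stated. A smaller number of expressing cells and less RNA per cell cannot be told apart in such bulk samples.

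Promoter windows of 4 of the genes are shown, those of both receptors, of Clcn5, which had the largest difference, and of Amn, whose groups overlapped. Each runs from 250 bases before to 50 after a RefSeq start (GRCm38.p6) and is written from 5′ to 3′ along the gene. Capitals mark every match, on either strand, to GGGNNNNNCC, the frame of a kappaB element, where N is any base, and overlapping matches run together.
Lrp2 (chr2:69585980-69586279, minus strand): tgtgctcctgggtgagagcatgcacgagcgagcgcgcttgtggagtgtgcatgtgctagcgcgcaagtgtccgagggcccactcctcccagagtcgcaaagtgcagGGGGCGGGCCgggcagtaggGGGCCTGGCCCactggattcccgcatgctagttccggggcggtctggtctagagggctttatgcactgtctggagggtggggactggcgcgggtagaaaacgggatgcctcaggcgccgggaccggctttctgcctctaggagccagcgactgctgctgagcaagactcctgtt
Cubn (chr2:13491827-13492126, minus strand): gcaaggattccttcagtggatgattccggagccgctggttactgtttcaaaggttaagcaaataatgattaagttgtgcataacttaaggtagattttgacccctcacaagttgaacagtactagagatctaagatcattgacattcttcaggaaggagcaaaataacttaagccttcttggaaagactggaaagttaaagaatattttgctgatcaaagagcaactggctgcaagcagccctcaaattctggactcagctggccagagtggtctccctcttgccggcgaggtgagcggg
Clcn5 (chrX:7319309-7319608, minus strand): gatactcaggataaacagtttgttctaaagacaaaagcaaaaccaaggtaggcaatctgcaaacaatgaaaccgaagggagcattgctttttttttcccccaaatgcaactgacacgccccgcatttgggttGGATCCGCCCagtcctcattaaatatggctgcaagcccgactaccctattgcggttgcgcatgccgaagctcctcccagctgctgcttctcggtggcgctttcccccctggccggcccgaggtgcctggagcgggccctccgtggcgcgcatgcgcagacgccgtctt
Amn (chr12:111270846-111271145, plus strand): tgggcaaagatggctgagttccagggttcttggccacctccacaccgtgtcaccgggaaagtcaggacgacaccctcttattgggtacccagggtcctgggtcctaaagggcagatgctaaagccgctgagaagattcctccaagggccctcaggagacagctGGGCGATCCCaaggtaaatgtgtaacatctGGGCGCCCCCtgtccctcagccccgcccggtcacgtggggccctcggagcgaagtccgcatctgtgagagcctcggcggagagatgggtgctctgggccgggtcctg

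All 6 genes had a window in the RefSeq table, 8 windows in all, since Dab2 and Clcn5 had 2 each. The frame GGGNNNNNCC matched at 3 places in the Lrp2 window, 4 in that of Amn (2 positions, each read on both strands), 2 in that of Lrpap1, 1 in the printed Clcn5 window and 1 in a Dab2 window. It matched 0 times in the window of Cubn and in the other windows of Dab2 and Clcn5. In all, 5 of the 8 windows held it, as did 50.8% of all 32851 promoter windows. The Cubn window had 44.3% G and C, the Lrp2 window 65.0%, the Amn window 62.3% and the Lrpap1 window 61.3%, beside a median of 52.7%. The nuclear receptor half-site AGGTCA was in 0 of the 8 windows and in 16.3% of all. These matches describe letters in the windows only and show no binding.

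Lrp2, the megalin gene, stood at log2 values of 8.51, 8.77 and 9.05 in control 1, 2 and 3 and at 8.15, 8.43 and 7.83 in TWEAK 1, 2 and 3. The groups did not overlap, but only 0.08 separated control 1, the lowest control, from TWEAK 2, the highest TWEAK array. The means were 8.78 ± 0.27 and 8.13 ± 0.30 (SD, n = 3 per group). The difference of -0.64 (SE 0.18, 95% interval -1.06 to -0.23) had an unadjusted p of 0.00701 in limma and an adjusted p of 0.0859. A share of 3.44% of all genes had a difference as low or lower.

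Cubn, the cubilin gene, was at 6.15, 6.10 and 6.14 in the control arrays and at 5.89, 5.79 and 5.75 in the TWEAK arrays. Here the arrays of each group lay close together and the gap between the groups was 0.22. The difference was -0.33 (SE 0.08, 95% interval -0.51 to -0.14), with limma's adjusted p at 0.0641. The control SD was 0.03. The SE is the moderated one of limma, which draws the spread of each gene towards that of all genes. Cubn lay near the median of the arrays, and its signal over background is not known from the values used here.

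Amn, which encodes the membrane anchor of cubilin, was at 6.68, 6.34 and 6.30 in the control arrays and at 6.66, 6.33 and 6.45 in the TWEAK arrays. Replicate 1 was the highest array in both groups, and the groups overlapped throughout. The difference was 0.04 (SE 0.13, adjusted p = 0.893 in limma), and the 95% interval, from 0.84-fold to 1.27-fold of control, spans both sides of no change. It turned negative without control 2, control 3 or TWEAK 1, with -0.05 as its lowest value. Within arrays, Cubn minus Amn was -0.52, -0.24 and -0.16 in control and -0.78, -0.54 and -0.71 in TWEAK arrays, with a mean difference between the groups of -0.37 on the log2 scale. That pair was picked after its values were seen, and its difference was not tested.

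Lrpap1, the gene of the chaperone RAP, was at 10.45, 10.44 and 10.50 in control and at 10.27, 10.25 and 10.28 in TWEAK arrays. The arrays of each group lay close together, with SDs of 0.03 and 0.01, and the groups were 0.17 apart. The difference was small, -0.20 (SE 0.07, 95% interval -0.37 to -0.03), with an unadjusted p of 0.0259 in limma and an adjusted p of 0.163. It stayed between -0.21 and -0.18 in the 13 alternatives run. Of all genes, 17.3% had a difference as low or lower.

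Dab2, the clathrin adaptor, was at 10.66, 11.21 and 11.20 in control and at 10.43, 10.79 and 10.36 in TWEAK arrays. Control 1 lay below TWEAK 2, so the groups overlapped by 0.14 (lowest control minus highest TWEAK array, -0.14 on the log2 scale). The means were 11.02 ± 0.32 and 10.53 ± 0.23 (SD, n = 3). The difference was -0.50 (SE 0.18, 95% interval -0.90 to -0.09), with limma's adjusted p at 0.149.

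Clcn5, the endosomal exchanger, was at 8.70, 8.98 and 9.16 in control and at 8.40, 8.41 and 7.90 in TWEAK arrays. The groups were 0.30 apart, and TWEAK 3 was the lowest array, as it was for Lrp2, Cubn and Dab2. The difference of -0.71 (SE 0.17, 95% interval -1.09 to -0.33) was the largest of the 6 and came closest to the threshold, with an unadjusted p of 0.00256 in limma and an adjusted p of 0.0587. Of all genes, 2.56% had a difference as low or lower.

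**Figure D2:**
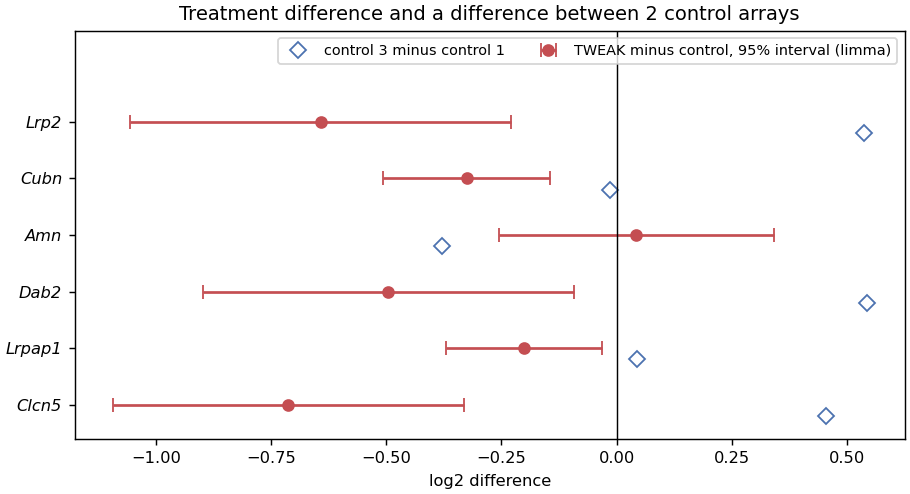
Log2 difference on the horizontal axis for each gene, with the TWEAK minus control difference and its 95% limma interval in red and the difference between control 3 and control 1 as an open blue diamond. The intervals of Lrp2, Cubn, Dab2, Lrpap1 and Clcn5 lie below 0, and the diamonds of Lrp2, Dab2 and Clcn5 lie at 0.54, 0.54 and 0.45.

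The spread inside the control group differed between these genes. The control SD was 0.21 to 0.32 for Lrp2, Dab2, Clcn5 and Amn, and 0.03 for Cubn and Lrpap1. Control 3 minus control 1 was 0.54 for Lrp2, 0.54 for Dab2 and 0.45 for Clcn5, whereas it was -0.02 for Cubn, 0.04 for Lrpap1 and -0.38 for Amn. The treatment difference was larger in size than this control difference for 4 of the 6 genes, as it was for 41.5% of all genes. In size it was 1.57 times the control difference for Clcn5, 1.20 times for Lrp2 and 0.911 times for Dab2. For Cubn it was 21.4 times, for Lrpap1 4.56 times and for Amn 0.114 times. The Cubn ratio rests on a very small control difference and is unstable. That control difference was 0.0031 with arrays centred on their medians and 0.10 after cyclic loess, and the 3 Cubn controls spanned 0.05. Control 1, nearest to the TWEAK arrays on the first principal component, was also the lowest control for Lrp2, Dab2 and Clcn5. The part of that shared variation in the differences was not tested.

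Leaving out control 1 brought 3 of the 6 genes past the threshold in limma, when 8.50% of all genes passed. Without it the log2 difference was -0.84 for Clcn5 (adjusted p = 0.0271), -0.68 for Dab2 (0.0300) and -0.77 for Lrp2 (0.0410). Leaving out any other array called 0 of the 6. The share of all genes called was then 0.0725% without control 2, 0.286% without control 3, 0.00453% without TWEAK 1, 0.993% without TWEAK 2 and 0.172% without TWEAK 3. Without TWEAK 3 the difference was -0.49 for Lrp2 and -0.55 for Clcn5, and without control 2 it was -0.40 for Dab2. Cubn ranged only from -0.37 to -0.30 over the 6 arrays left out in turn, with adjusted p from 0.0893 to 0.186. With all 6 arrays, Clcn5 also passed with limma's trend and robust settings (adjusted p = 0.0492, 3.99% of all genes called) and among genes brighter than the median gene (0.0461, 9.25% called).

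**Figure D3:**
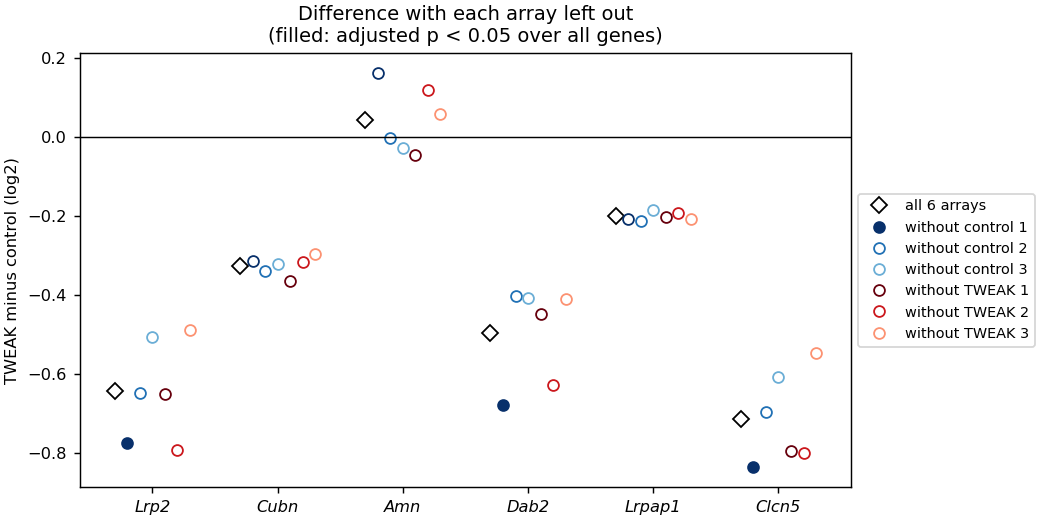
TWEAK minus control difference (log2, vertical axis) of each gene with all 6 arrays (diamond) and with each array left out in turn (circles), filled where the adjusted p over all genes was under 0.05. The filled points are those of Lrp2, Dab2 and Clcn5 without control 1, and Amn crosses 0.

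The array patterns of Lrp2, Dab2 and Clcn5, the genes with an SD of at least 0.2 over the 6 arrays, were compared with those of 4456 other genes of at least that spread and above median brightness. Likeness is Pearson's r over 6 arrays, all shared by the genes and split into the same 2 groups, so it is a description. Most like Lrp2 were the mitotic spindle gene Dlgap5 (r = 0.9998), the nuclear export receptor gene Cse1l (0.999) and the spindle gene Spag5 (0.998), with log2 differences of -0.56, -0.88 and -0.50. Most like Dab2 were the Polycomb gene Eed (0.998), the RNA helicase gene Dhx15 (0.998) and the cohesin regulator gene Pds5b (0.992). Most like Clcn5 were the actin-binding protein gene Cald1 (0.999), the coatomer gene Copg2 (0.999) and the ubiquitin ligase gene Ltn1 (0.999). Such likeness was common, since 689 genes reached r of 0.95 with Lrp2, 756 with Clcn5 and 273 with Dab2. Clcn5 was 262nd in likeness to Lrp2 (r = 0.975) and Dab2 855th (r = 0.938), so the genes were not each other's nearest patterns.

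The other genes of the route were described through 6 lists with 116 members, all measured. Among 13 LDL receptor family and sorting receptors 0 passed limma's test (3 lower and 0 higher before adjustment), with a median difference of -0.19. Counts before adjustment are at an unadjusted p under 0.05, as met by 13.1% of all genes on the lower and 8.15% on the higher side. The sorting receptor Sort1 differed by -0.43 (SE 0.10, adjusted p = 0.0590 in limma), and the endocytic receptor Lrp1, a large relative of megalin, by -0.31 (SE 0.09, 0.0984). Sort1 passed without control 1, at -0.51. The VLDL receptor gene Vldlr differed by -0.30 (SE 0.15). Lrp10 and Lrp11, the members with the smallest p among those higher, differed by 0.16 (SE 0.08) and 0.22 (SE 0.12).

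Of 30 genes of the clathrin coat and its adaptors, 1 fell and 0 rose (10 lower and 3 higher before adjustment), with a median of -0.14. The one that fell was Fcho2, which starts clathrin-coated pits. It was at 7.08, 7.27 and 7.51 in control and at 6.38, 6.36 and 6.51 in TWEAK arrays, groups that were 0.57 apart, and it fell by 0.87 on the log2 scale (SE 0.12, adjusted p = 0.0233 in limma). The call was lost without control 2 (0.109), TWEAK 1 (0.0906) or TWEAK 3 (0.0714). Without control 1 the list had 5 genes past the threshold, when 8.50% of all genes passed. Gulp1, an engulfment adaptor that binds tails of the LDL receptor family, differed by -1.01 (SE 0.23, 0.0547). Numb, an adaptor with a domain like that of Dab2, differed by -0.17 (SE 0.08, adjusted p = 0.287). Bin1, a membrane-bending protein, and the dynamin gene Dnm1 differed by 0.39 (SE 0.09) and 0.24 (SE 0.09).

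Endosome sorting and recycling, by which the receptors return to the surface, had 23 genes, of which 1 rose and 0 fell (12 lower and 1 higher before adjustment), with a median of -0.29. Ehd1, an ATPase of the recycling endosome, was at 11.57, 11.43 and 11.20 in control and at 12.07, 11.98 and 11.88 in TWEAK arrays. It rose by 0.58 (SE 0.11, adjusted p = 0.0431 in limma), with no overlap between the groups. The retromer genes Vps35 and Vps26a differed by -1.24 (SE 0.31, adjusted p = 0.0667) and -0.86 (SE 0.19, 0.0514), and Rab11b, a small GTPase of recycling, by 0.13 (SE 0.08). Without control 1 the list had 8 genes past the threshold, when 8.50% of all genes passed. Without control 2, control 3, TWEAK 1 or TWEAK 3 it had 0, when 0.00453% to 0.286% of all genes passed. Without TWEAK 2 the call of Ehd1 was lost as well (0.0743), and Vps26a passed in its place. Ehd1 also missed the threshold with probe sets tested singly (0.0685) and after cyclic loess (0.0645), and its difference stayed between 0.48 and 0.66 with arrays left out.

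Acidification and ion exchange of endosomes, the step in which ClC-5 takes part, had 28 genes, and 4 of these fell while 0 rose (13 lower and 0 higher before adjustment). The median of the list was -0.07. Ostm1, the partner of the lysosomal exchanger ClC-7, was at 8.90, 9.19 and 9.75 in control and at 8.07, 8.26 and 7.61 in TWEAK arrays. It fell by 1.30 on the log2 scale (SE 0.23, adjusted p = 0.0373 in limma), and the groups were 0.63 apart. Atp6v1h, a subunit of the proton pump, was at 8.44, 8.26 and 8.52 in control and at 7.95, 7.76 and 7.75 in TWEAK arrays, and fell by 0.59 (SE 0.10, 0.0359). The other calls were the pump subunits Atp6v1c1, which fell by 0.76 (SE 0.16, 0.0469), and Atp6v0a1, which fell by 0.36 (SE 0.08, 0.0492), both named after their values were seen. The 4 calls became 8 without control 1 (8.50% of all genes called) and 0 without any 1 of the other arrays (0.00453% to 0.993%). They were 2 with arrays centred on their medians and 0 with probe sets tested singly or after cyclic loess, where Ostm1 differed by -1.30 (adjusted p = 0.0656) and -1.29 (0.0579).

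Among the relatives of Clcn5, the endosomal exchanger gene Clcn3 was at 7.03, 7.43 and 7.42 in control and at 6.53, 6.84 and 6.21 in TWEAK arrays. Its groups did not overlap, and it differed by -0.77 (SE 0.17, adjusted p = 0.0547 in limma), close to the -0.71 of Clcn5. Without control 1 it passed, at -0.90 (0.0248). Clcn4 differed by -0.33 (SE 0.11, 0.129). Clcn7 differed by -0.04 (SE 0.10, 0.873), with overlapping groups, and was just above 0 without control 1 or TWEAK 1. The pump genes Atp6v0a4 and Atp6v1f, with the smallest p among the higher members, differed by 0.22 (SE 0.15) and 0.21 (SE 0.15).

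**Figure D4:**
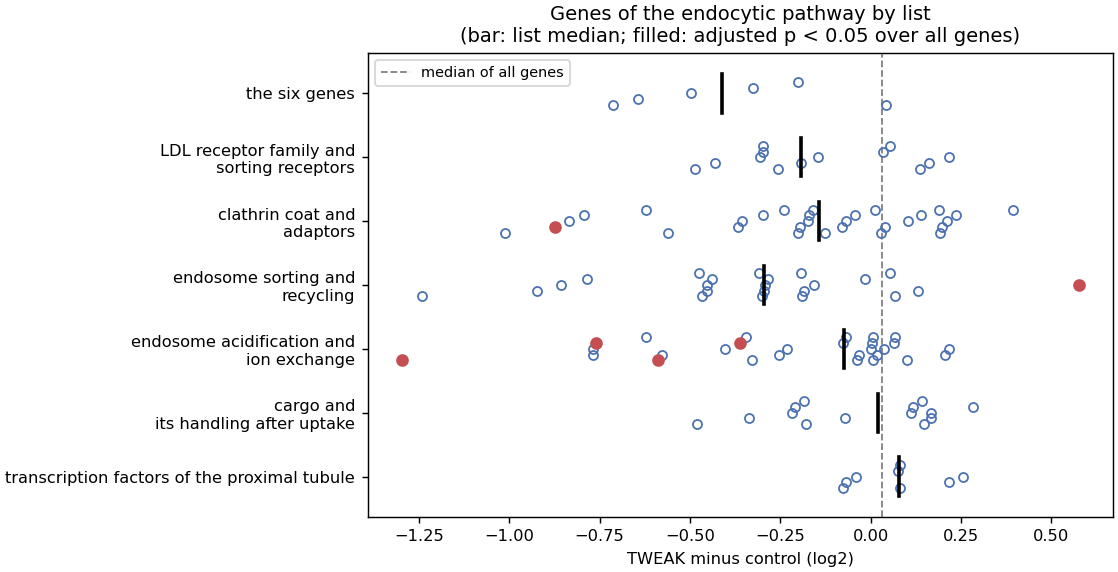
TWEAK minus control difference (log2, horizontal axis) of each gene of the 6 lists and of Lrp2, Cubn, Amn, Dab2, Lrpap1 and Clcn5 in the top row, with the list median as a black bar and genes with an adjusted p under 0.05 filled. The medians lie between -0.41 (top row) and 0.08 (transcription factors), and the filled points are Fcho2, Ehd1, Ostm1, Atp6v1h, Atp6v1c1 and Atp6v0a1.

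Of 14 genes for the cargo of these receptors and its handling, 0 passed limma's test (2 lower and 1 higher before adjustment), and the median was 0.02. The lysosomal proteases Ctsl and Lgmn differed by -0.48 (SE 0.12, adjusted p = 0.0685) and -0.19 (SE 0.08, 0.234). Mmachc, which processes vitamin B12 inside cells, and Cd320, the receptor for transcobalamin, differed by 0.28 (SE 0.09, 0.107) and 0.17 (SE 0.11, 0.425). Of 8 transcription factors of the proximal tubule 0 passed (0 lower and 1 higher before adjustment), with a median of 0.08. Hnf4a, which is not the 1 counted as higher, differed by 0.22 (SE 0.10, unadjusted p = 0.0532 and adjusted p = 0.243 in limma). Every TWEAK array lay above every control array for Hnf4a, as held for 12.9% of all genes. Hnf4g differed by -0.07 (SE 0.09, 0.691).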

How the data were processed

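Total RNA (Trizol) was labelled with the GeneChip WT PLUS reagents, per the labels' protocols. The authors deposited log2 values for each probe set and array. RMA and Affymetrix Expression Console are the tools named for this, per the submitters' processing notes; tool versions and a genome build were not given in the sources used here. Because RMA gives the arrays a shared distribution, a change common to most transcripts is hidden. Both deposited tables held the same log2 values (largest difference 1.78e-15). The authors' deposited ratio equals mean unlogged TWEAK over mean unlogged control values (largest relative difference 1.53e-15), and their deposited p-value that of limma over all probe sets; both served as checks only.

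Of 28361 probe sets, 25465 had 1 symbol, updated through a RefSeq table (GRCm38.p6, names only). A gene was represented by its brightest probe set. Groups came from sample titles. Differences were tested with limma 3.58.1 (lmFit, eBayes) in R 4.3.3 without a block, with Benjamini-Hochberg adjustment over 22061 genes and a threshold of 0.05; the number of arrays limits the precision. Figures used Python 3.11.15 and matplotlib 3.10.9. The code was tested on simulated data. The genes, lists and tests were chosen with earlier results of these data known. Named were the 6 genes, the 2 smallest p in each direction of each list, 9 fixed relatives, and for each of the 6 genes with an SD of at least 0.2 the 3 most similar patterns; 4 genes that this rule names are not reported here. The alternatives were trend and robust settings of eBayes, a replicate block, brighter genes alone, probe sets averaged per gene or tested singly, 2 scalings and each array left out. Protein sequences were not used here.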

Additional observations from a re-analysis of the deposited data

How the results depend on the processing

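Over 13 alternatives (12 for Cubn, which was too dim for the test of brighter genes) Lrp2, Cubn, Dab2, Lrpap1 and Clcn5 kept their sign. Clcn5 passed, at -0.71, with trend and robust settings and among brighter genes, so that the count of the 6 genes past the threshold was 1 in each instead of 0. With arrays left out in turn that count ran from 0 to 3. The differences ran from -0.79 to -0.49 for Lrp2, -0.37 to -0.30 for Cubn, -0.047 to 0.16 for Amn, -0.68 to -0.40 for Dab2, -0.21 to -0.18 for Lrpap1 and -0.84 to -0.55 for Clcn5.

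All genes called, 661, became 207 with a replicate block, 1020 of the brighter genes, 107 over single probe sets, 267 after cyclic loess and 1 to 1876 with arrays left out. Deviations of same-numbered arrays correlated at 0.20, 0.36 and -0.07, and those of arrays with different numbers at -0.49 to 0.29. With 3 arrays per group, these values cannot decide whether the replicate numbers pair the arrays. With the replicate block Lrp2 was at -0.64, Clcn5 at -0.71, and 0 of the 6 genes passed. Among the called list genes, only Fcho2 kept its call with the block (adjusted p = 0.0375 in limma). Ehd1 (0.0534), Atp6v1h (0.0596) and Ostm1 (0.0749) missed the threshold at unchanged differences. Atp6v1c1 and Atp6v0a1 lost their calls too, as the acidification list then had 0.

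Calls in the lists moved too, beside a share of all genes called that was 3.00% before these changes. That share was 0.938% with the replicate block, 3.99% with trend and robust settings and 9.25% of the brighter genes. It was 0.377% over single probe sets, 2.62% with centred arrays, 1.21% after cyclic loess and 0.00453% to 8.50% with arrays left out. The LDL receptor family had 1 among brighter genes and 0 to 1 with arrays left out. The clathrin list had 3 with trend and robust settings, 3 among brighter genes and 0 to 5 with arrays left out. Sorting and recycling had 0 with the replicate block, 2 with trend and robust settings, 2 among brighter genes, 0 over single probe sets, 0 after cyclic loess and 0 to 8 with arrays left out. Acidification had 0 with the replicate block, 7 with trend and robust settings, 7 among brighter genes, 0 over single probe sets, 2 with centred arrays, 0 after cyclic loess and 0 to 8 with arrays left out. The cause was not tested beyond what each alternative changes by construction. Clcn7 ran from -0.12 to 0.0096 (0.0043 without control 1). Cyclic loess moved control 3 minus control 1 of Cubn to 0.10. No detection measure was at hand, so differences of dim genes could go unseen.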
